A study of Mus musculus with 6 samples.

Results

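The 6 ligand and 3 receptor genes of the EGF family named here were followed in small intestine tumors of mice treated with vehicle or with PEGPH20, a pegylated hyaluronidase that degrades the matrix sugar polymer hyaluronan. The ligand genes were Areg, Ereg, Hbegf, Tgfa, Btc and Nrg1 and the receptor genes Egfr, Erbb2 and Erbb3. They were taken by symbol, and all 9 had a row among the 21878 gene rows of the table. Both groups carried the genotype Prkcif/fPrkczf/f;Villin-Cre, in which the Villin promoter drives Cre in intestinal epithelium against floxed genes of the atypical protein kinase C isoforms. Vehicle (replicates 1 to 3) or PEGPH20 at 0.0375 mg/kg (replicates 4 to 6) was given from 11 weeks of age, with 2 doses a week for 3 weeks, and tumors were taken at 14 weeks. No tumor with intact kinase genes and no normal intestine was analysed here, and the labels do not state whether each tumor came from a separate mouse.

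EGF family ligands are made as membrane-anchored precursors that ADAM proteases release. Areg, Ereg, Hbegf, Tgfa and Btc bind the receptor EGFR, some of them ERBB4 as well, and Nrg1 binds ERBB3 and ERBB4. ERBB2 has no known ligand and acts as a dimer partner, and ERBB3 has little kinase activity of its own and signals through its partners to PI3 kinase. In the intestine these signals sustain crypt growth and repair, largely through the RAS, RAF and ERK cascade.

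Libraries of 3' mRNA tags held 2075588 to 2832876 reads, and values are counts per 1000000 reads (CPM). Tags come from the 3' end of a transcript, so a level does not scale with transcript length. The epithelial markers Epcam, Cdh1, Vil1, Cdx1 and Cdx2 were detected in every library, as were fibroblast collagens, so the RNA is that of whole tumor tissue. In such bulk samples fewer cells of a type and less RNA per cell cannot be told apart. PEGPH20 replicate 5 stood apart. Its correlation with the other libraries over all gene rows was 0.937 to 0.958, against 0.971 to 0.984 among the other 5, and mitochondrially encoded mRNA took 5.15% of its reads against 3.34% to 3.99%. Fitted log2 differences are therefore given with and without it.

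The family genes ranged from strongly to moderately expressed, and Areg led in vehicle tumors. Areg encodes amphiregulin and averaged 362 ± 90.3 CPM there (SD, n = 3), above 96.3% of genes tested when all libraries were averaged. Btc followed at 171 ± 28.4 CPM, Ereg at 141 ± 25.1 CPM and Nrg1 at 129 ± 21.6 CPM. The vehicle ranges of Btc and Ereg overlapped, as did those of Ereg and Nrg1, so that part of the order is not resolved. Egfr at 87.1 ± 10.02 CPM and Hbegf at 80.8 ± 9.97 CPM overlapped too. Erbb3 lay below them at 50.4 ± 1.12 CPM. Tgfa and Erbb2, at 32.2 ± 4.23 and 31.8 ± 0.470 CPM, were the lowest and overlapped. In PEGPH20 replicate 5 the order was different, with Erbb3 and Erbb2 first and Btc last.

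No family gene passed the test between PEGPH20 and vehicle tumors. With limma across 11389 genes and a threshold of 0.05 on Benjamini-Hochberg adjusted p-values, 0 of 9 passed, and 0.079% of all genes tested did. The adjusted p-values of the 9 genes ran from 0.204 to 0.569. At an unadjusted p under 0.05 there was 1 family gene, Erbb3, where 18.0% of all genes lay below that level. On recovered reads edgeR passed 0 of 9 and 0.0878% of all genes, and DESeq2 0 of 9 and 2.43%. With array weights, which give libraries that stand apart less weight, limma passed 0 of 9 and 7.65% of all genes. All 9 genes passed the filter on low counts. The log2 difference was below 0 in 7 of 9, as in 59.8% of all genes tested, and without PEGPH20 replicate 5 in 5 of 9 and 51.9%. The median log2 difference (PEGPH20 minus vehicle, of log2(CPM + 1)) was -0.96 over the family and -1.45 over the 6 ligands, against -0.09 over all genes tested. Without PEGPH20 replicate 5 these medians were -0.30, -0.41 and -0.01.

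**Figure D1:**
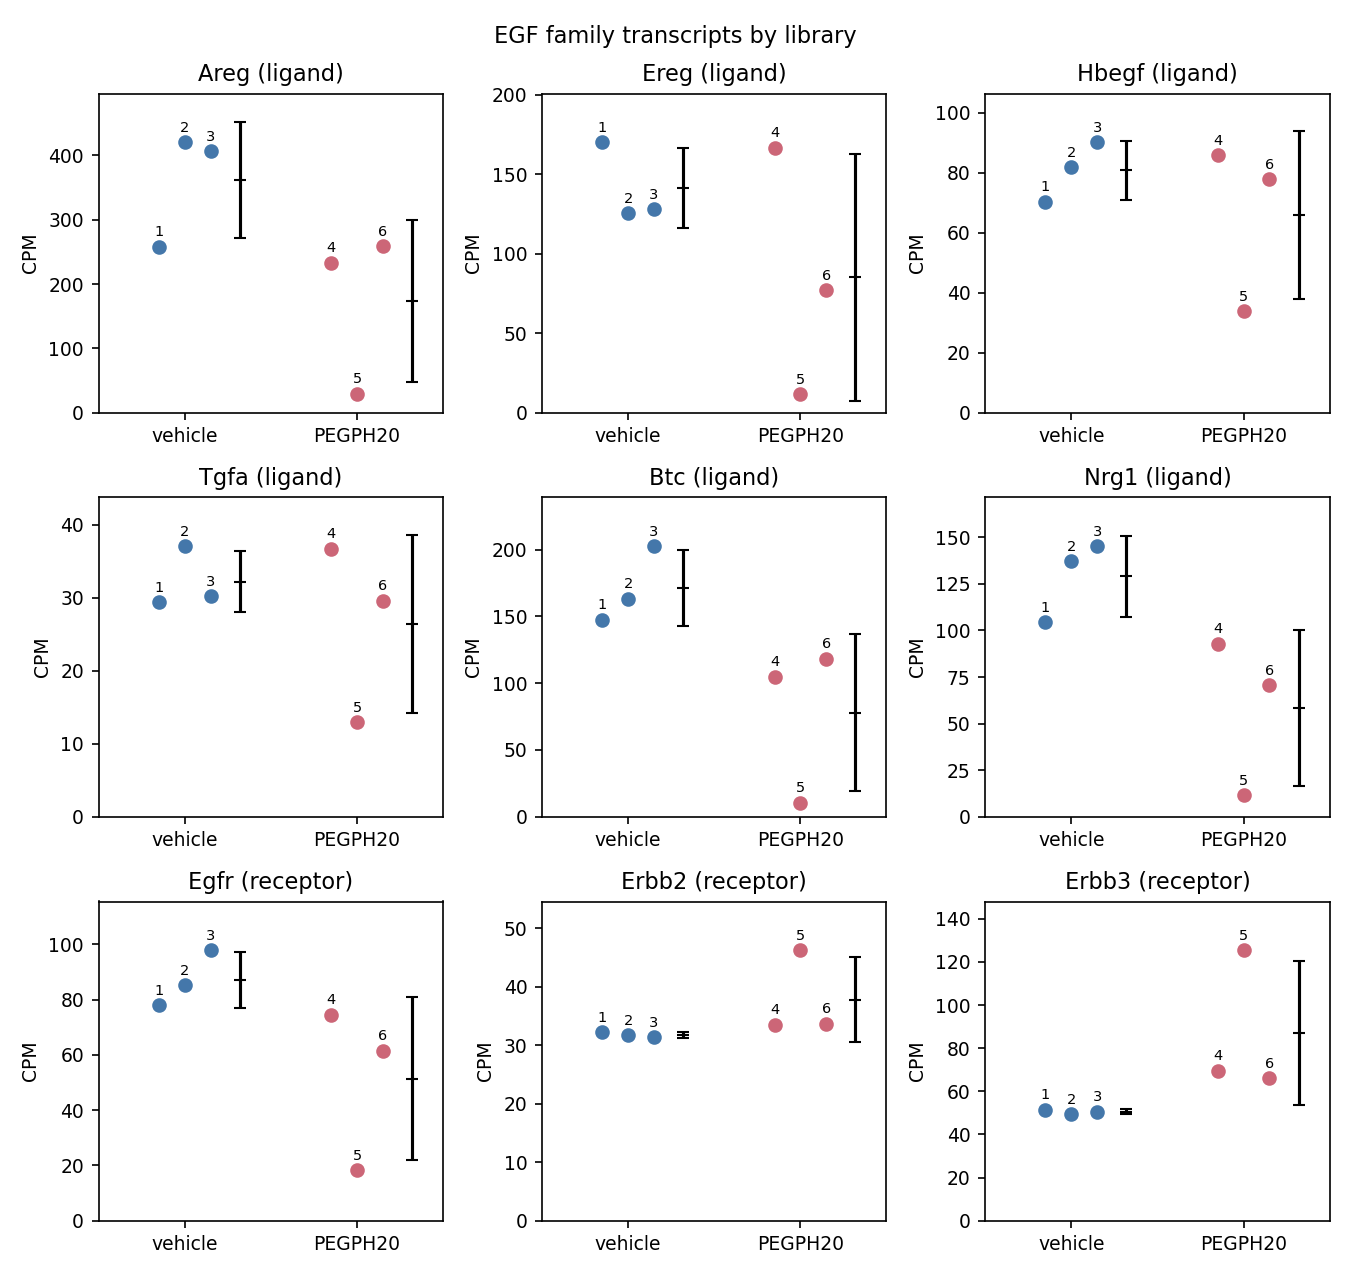
CPM of each EGF family gene in the 3 vehicle and 3 PEGPH20 libraries, numbered by replicate, with the group mean and SD as black bars and a separate axis from 0 for each gene. PEGPH20 replicate 5 is the lowest library for 7 of the 9 genes and the highest for Erbb2 and Erbb3.

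Btc and Nrg1 were the ligands whose groups did not overlap. Btc, which encodes betacellulin, was at 147, 163 and 203 CPM in vehicle replicates 1 to 3 and at 105, 10.4 and 118 CPM in PEGPH20 replicates 4 to 6. All PEGPH20 libraries lay below all vehicle libraries, and replicate 5 lay far below the other PEGPH20 libraries. The log2 difference was -1.70 (SE 0.81, limma adjusted p = 0.311), and without replicate 5 it was -0.60 (SE 0.15, adjusted p = 0.0568). Nrg1, which encodes neuregulin 1, was at 105, 137 and 145 CPM in vehicle and at 92.8, 11.7 and 70.5 CPM in PEGPH20 libraries. Here too every PEGPH20 library was below every vehicle library. Its log2 difference was -1.55 (SE 0.67, limma adjusted p = 0.280), and without replicate 5 it was -0.65 (SE 0.17, adjusted p = 0.0707). Nrg1 has 12 annotated coding transcripts with 10 distinct 3' ends, and the gene value does not tell its isoforms apart.

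Btc and Nrg1 passed the threshold in edgeR without PEGPH20 replicate 5, an alternative chosen after seeing the data. The log2 differences were then -0.60 for Btc and -0.64 for Nrg1, with edgeR adjusted p = 0.0438 and 0.0463. These were 2 of 9 family genes, where 3.7% of all genes tested passed in that fit. The limma test without the same library passed 0 of 9 and 2.98% of all genes, with 5 family genes at an unadjusted p under 0.05 and 18.7% of all genes. Of these, 4 were lower, where 11.0% of all genes were, and 1 was higher, where 7.66% were.

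Areg and Ereg overlapped between groups. Areg was at 258, 421 and 407 CPM in vehicle and at 233, 29.2 and 259 CPM in PEGPH20 libraries, so PEGPH20 replicate 6 reached the level of vehicle replicate 1. Its log2 difference was -1.53 (SE 0.76, limma adjusted p = 0.321) with all libraries and -0.52 (SE 0.19, adjusted p = 0.174) without replicate 5. Ereg encodes epiregulin and was at 170.1, 125 and 128 CPM in vehicle and at 167, 11.7 and 76.9 CPM in PEGPH20 libraries. PEGPH20 replicate 4 thus lay within the vehicle range and the other 2 below it. The Ereg log2 difference was -1.36 (SE 0.81, limma adjusted p = 0.396), and -0.30 (SE 0.27, adjusted p = 0.602) without replicate 5. The ratio of Areg to Ereg was 1.52, 3.35 and 3.18 in vehicle and 1.40, 2.50 and 3.36 in PEGPH20 libraries, with overlapping groups.

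Hbegf and Tgfa differed least among the ligands. Hbegf encodes heparin-binding EGF-like growth factor and was at 70.3, 81.8 and 90.2 CPM in vehicle and at 85.8, 33.8 and 77.8 CPM in PEGPH20 libraries. Tgfa, which encodes transforming growth factor alpha, was at 29.4, 37.1 and 30.2 CPM in vehicle and at 36.7, 12.9 and 29.6 CPM in PEGPH20 libraries. In both genes PEGPH20 replicates 4 and 6 lay within the vehicle range and replicate 5 lay below it. Their log2 differences were -0.39 (SE 0.33, limma adjusted p = 0.539) for Hbegf and -0.39 (SE 0.36, adjusted p = 0.569) for Tgfa. Without replicate 5 the differences were 0.023 (SE 0.14) and 0.039 (SE 0.18), with the sign turned.

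**Figure D2:**
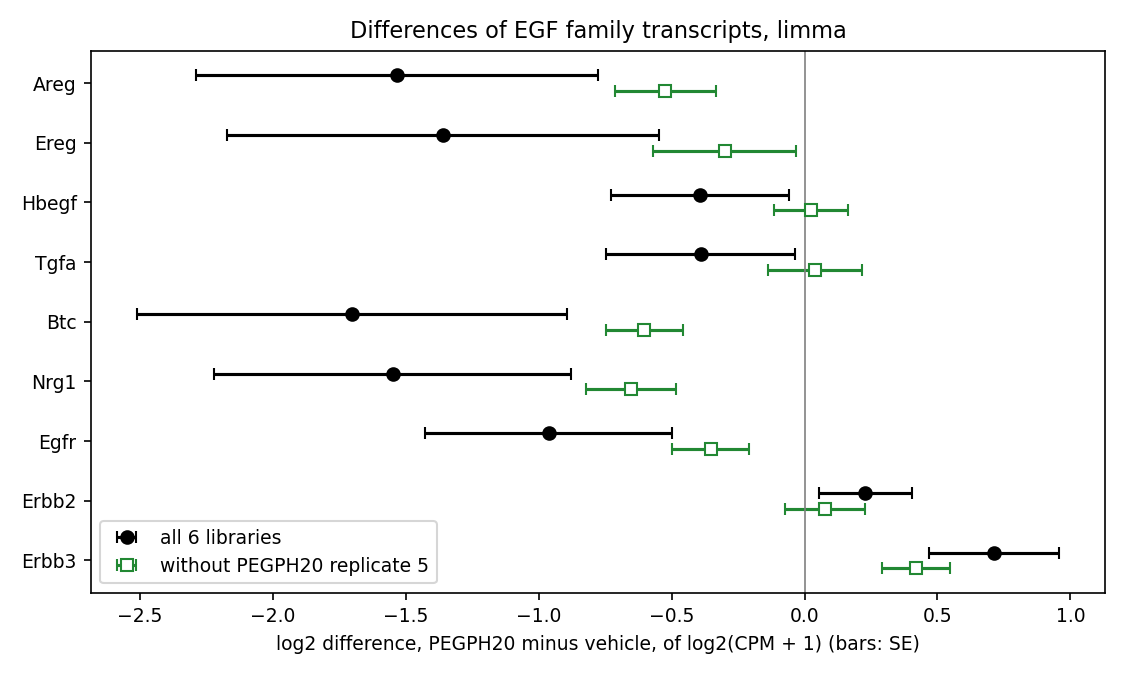
Log2 difference of each EGF family gene (PEGPH20 minus vehicle, of log2(CPM + 1)) with its SE from limma, for all 6 libraries (filled circles) and without PEGPH20 replicate 5 (open squares). The ligand differences shrink without that library, from -1.70 to -0.60 for Btc, and those of Hbegf and Tgfa come to lie near 0.

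The ligand values of PEGPH20 replicate 5 rested on few reads but were low beyond counting error. Btc had 25 reads there, and the 95% Wilson interval of its level ran from 7.06 to 15.4 CPM. Ereg and Nrg1 had 28 reads each, with an interval from 8.07 to 16.9 CPM, and Areg had 70 reads, with an interval from 23.1 to 36.9 CPM. Such intervals cover counting error only. The mean of the other 5 libraries was 14.1 times the replicate 5 level for Btc, 11.4 times for Ereg, 10.8 times for Areg and 9.43 times for Nrg1. It was 2.52 times for Tgfa and 2.41 times for Hbegf. In all, 7 of 9 family genes were at least 2-fold lower in replicate 5 than in the mean of the other libraries, compared with 15.9% of all genes tested. The same 7 genes had their lowest value there, and 45.3% of all genes did. Erbb2 and Erbb3 had their highest value there, 2 of 9 where 18.4% of all genes did.

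The receptors went apart from each other. Egfr was at 78.1, 85.3 and 97.9 CPM in vehicle and at 74.5, 18.3 and 61.4 CPM in PEGPH20 libraries, with every PEGPH20 library below every vehicle library. Its log2 difference was -0.96 (SE 0.46, limma adjusted p = 0.316), and -0.35 (SE 0.15, adjusted p = 0.227) without replicate 5. Erbb3 was at 51.6, 49.3 and 50.5 CPM in vehicle and at 69.5, 125 and 66.0 CPM in PEGPH20 libraries. All PEGPH20 libraries were above all vehicle libraries, and the vehicle libraries differed little among themselves. The Erbb3 log2 difference was 0.71 (SE 0.24, limma adjusted p = 0.204), and 0.42 (SE 0.13, adjusted p = 0.115) without replicate 5. Erbb2 was at 32.3, 31.7 and 31.3 CPM in vehicle and at 33.5, 46.3 and 33.7 CPM in PEGPH20 libraries. Its groups did not overlap, but replicates 4 and 6 lay close above the vehicle range. Their 95% Wilson intervals, 27.4 to 41.0 and 26.8 to 42.3 CPM, covered all vehicle values of Erbb2, so that margin is within counting error. The Erbb2 log2 difference was 0.23 (SE 0.17, limma adjusted p = 0.4998), and 0.08 (SE 0.15, adjusted p = 0.834) without replicate 5.

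Over the family, groups did not overlap in 3 genes on the lower side (Btc, Nrg1 and Egfr), where 17.6% of all genes tested did so, and in 2 on the higher side (Erbb2 and Erbb3), where 9.71% did. Erbb2 is counted there through the small margins given above. Spans of Erbb2 and of Mien1, which lies on the opposite strand, overlap in the annotation, and counting by strand is not given in the sources used here. Mien1 was at 50.6, 42.8 and 34.4 CPM in vehicle and at 58.6, 43.3 and 58.7 CPM in PEGPH20 libraries, so the Erbb2 value is uncertain to that extent.

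Sums and ratios within the family show how its balance differed. The 6 ligands summed to 779.5, 965 and 1003 CPM in vehicle and to 719.8, 109.6 and 632 CPM in PEGPH20 libraries, while the 3 receptors summed to 162 to 179.7 CPM and 161 to 190.04 CPM. Receptor transcripts as a sum thus overlapped between groups and ligand transcripts did not. Egfr was 48.2% to 54.5% of the receptor sum in vehicle and 41.9%, 9.65% and 38.1% in PEGPH20 replicates 4 to 6. The ratio of Egfr to Erbb3, which does not depend on library scaling, was 1.51, 1.73 and 1.94 in vehicle and 1.07, 0.146 and 0.931 in PEGPH20 libraries. Hbegf was 8.48% to 9.02% of the ligand sum in vehicle and 11.9%, 30.8% and 12.3% in PEGPH20 libraries. These sums and ratios were formed after the values were seen and were not tested.

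**Figure D3:**
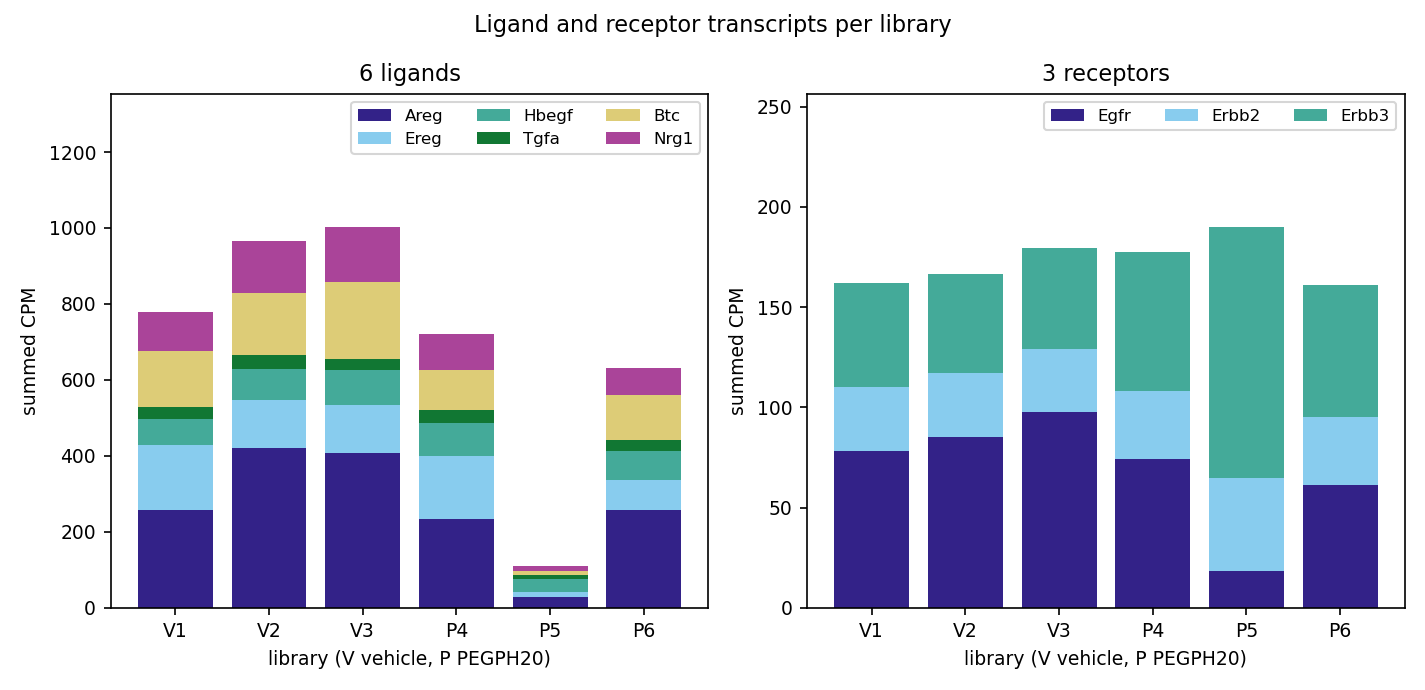
Summed CPM of the 6 ligand genes (left) and the 3 receptor genes (right) in each library, stacked by gene, with V for vehicle and P for PEGPH20 and the replicate number. The ligand sum is 109.6 CPM in PEGPH20 replicate 5 and between 632 and 1003 CPM in the others, and the receptor sum is 161 to 190.04 CPM with Erbb3 as its main part in that library.

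Genes of 3 ligands lie close together. On GRCm38, Ereg (ENSMUSG00000029377) spans chromosome 5 from 91074622 to 91093646 and Areg (ENSMUSG00000029378) from 91139599 to 91148432, both on the plus strand. Btc (ENSMUSG00000082361) spans 91357261 to 91402994 on the minus strand. A further ligand gene, Epgn, starts the group at 91027464, and the whole stretch covers 376 kb. Of the 7 annotated genes in it, the 3 that were tested are Ereg, Areg and Btc. Other family genes lie elsewhere, with Tgfa on chromosome 6, Nrg1 on chromosome 8, Erbb3 on chromosome 10 and Egfr and Erbb2 on chromosome 11.

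Promoter windows from 250 bases before to 50 bases after the start were at hand for 5 of 9 genes in RefSeq (GRCm38.p6). Every ligand gene and Egfr had their lowest value in PEGPH20 replicate 5, and Erbb2 its highest. Shown are the windows of the neighbouring ligands Areg and Btc and of the receptors Egfr and Erbb2, whose log2 differences had opposite signs. They are Areg at chr5:91139349-91139648 on the plus strand, Btc at chr5:91402945-91403244 on the minus strand, Egfr at chr11:16751953-16752252 and Erbb2 at chr11:98412234-98412533, both on the plus strand. Capitals mark matches to 4 motifs searched on both strands: AP-1 (TGANTCA), the core of the cAMP response element (TGACGT), TEAD (CATTCC) and the TATA box (TATAAA).
Areg: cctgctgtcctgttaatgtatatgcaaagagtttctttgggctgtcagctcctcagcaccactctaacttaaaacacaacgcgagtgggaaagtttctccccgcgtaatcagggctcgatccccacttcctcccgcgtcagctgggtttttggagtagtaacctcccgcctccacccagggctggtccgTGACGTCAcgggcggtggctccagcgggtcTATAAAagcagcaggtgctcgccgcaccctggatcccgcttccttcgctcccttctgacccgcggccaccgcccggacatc
Btc: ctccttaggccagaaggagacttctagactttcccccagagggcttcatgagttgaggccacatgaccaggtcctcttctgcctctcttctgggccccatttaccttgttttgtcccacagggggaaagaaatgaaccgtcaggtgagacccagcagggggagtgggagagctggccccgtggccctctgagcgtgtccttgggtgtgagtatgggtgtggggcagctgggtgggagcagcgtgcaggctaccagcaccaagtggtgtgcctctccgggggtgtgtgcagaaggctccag
Egfr: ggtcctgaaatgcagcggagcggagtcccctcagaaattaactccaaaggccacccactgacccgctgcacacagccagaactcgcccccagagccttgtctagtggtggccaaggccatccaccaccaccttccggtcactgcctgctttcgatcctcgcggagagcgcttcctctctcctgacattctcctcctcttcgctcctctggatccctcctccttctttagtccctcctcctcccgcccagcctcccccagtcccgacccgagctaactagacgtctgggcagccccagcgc
Erbb2: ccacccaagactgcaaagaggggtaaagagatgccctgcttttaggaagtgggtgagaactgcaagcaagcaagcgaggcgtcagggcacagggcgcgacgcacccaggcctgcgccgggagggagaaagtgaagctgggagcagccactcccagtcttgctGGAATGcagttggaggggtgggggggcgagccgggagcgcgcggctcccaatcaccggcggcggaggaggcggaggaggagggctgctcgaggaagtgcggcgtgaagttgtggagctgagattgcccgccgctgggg
The Areg window held the cAMP response element core on both strands in overlapping positions, beginning 61 and 59 bases upstream of the start, and a TATA box 31 bases upstream. Erbb2 held a TEAD match 88 bases upstream. No listed letters matched in the Btc, Egfr or Tgfa windows. Of all 32851 windows of this length, 7.51% held the cAMP response element core, 13.6% the TATA box, 14.7% the TEAD letters and 7.81% the AP-1 letters. Btc had 5 CpG dinucleotides in its window and Areg 21, where the median window had 7. A match is a description of the letters and was not linked to the values above.

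Reads were few for the ligand genes of the family outside the 9 that were measured. Egf, Epgn, Nrg2 and Nrg4 had 16, 25, 38 and 34 reads over all 6 libraries and did not pass the filter. Epgn had no read in PEGPH20 replicate 5, which allows up to 1.25 CPM. Nrg3 and Erbb4 were looked up by symbol as well and had no gene row, so no level can be given for them.

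For the lists of pathway genes that follow, the shares over all genes tested are those given for the family: 59.8% had a log2 difference below 0, 18.0% an unadjusted p under 0.05 and 0.079% passed the limma threshold. Without PEGPH20 replicate 5 these shares were 51.9%, 18.7% and 2.98%. Of 10 genes listed for ligand-releasing proteases, iRhoms and related regulators, 9 were tested. Of these 2 were higher and 7 lower, where 59.8% of all genes were lower. Their median log2 difference was -0.31, and 0 passed the limma threshold (1 at an unadjusted p under 0.05, where 18.0% of all genes were). Without PEGPH20 replicate 5 there were 4 higher and 5 lower with a median of -0.084. Adam15, a membrane protease, was at 30.8, 28.3 and 33.6 CPM in vehicle and at 15.5, 17.1 and 15.9 CPM in PEGPH20 libraries, so PEGPH20 libraries lay well below vehicle with replicate 5 among them. Its log2 difference was -0.89 (SE 0.16, limma adjusted p = 0.115), and without replicate 5 it was -0.93 (adjusted p = 0.0224). The log2 difference of Adam8 was -0.86 and, without replicate 5, -0.52 (limma adjusted p = 0.283 and 0.438). That of Rhbdf1, an iRhom gene, was -0.42 and, without replicate 5, -0.38 (limma adjusted p = 0.328 and 0.430). Adam17, the main sheddase of several EGFR ligands, was chosen after its values were seen and averaged 69.9 ± 3.47 CPM (SD, n = 3) with vehicle and 69.1 ± 3.20 CPM (SD, n = 3) with PEGPH20.

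Receptor inhibitors and feedback genes were tested for 19 of 20, with 5 higher and 14 lower where 59.8% of all genes were lower. Their median was -0.40, and 0 passed the limma threshold (4 at an unadjusted p under 0.05, a share of the list near the 18.0% of all genes). With PEGPH20 replicate 5 left out there were 6 higher and 13 lower with a median of -0.22. Errfi1, an inhibitor that binds the EGFR kinase domain and is induced by EGFR signaling, was at 64.6, 56.6 and 65.4 CPM in vehicle and at 38.8, 20.4 and 39.6 CPM in PEGPH20 libraries. Every PEGPH20 library lay below every vehicle library. Its log2 difference was -0.95 (SE 0.26, limma adjusted p = 0.164), and without replicate 5 it was -0.65 (adjusted p = 0.0367). Ptpn1, a phosphatase that acts on EGFR, had a log2 difference of -0.65 with all libraries and -0.34 without replicate 5 (limma adjusted p = 0.249 and 0.185). For Socs4 the values were 0.39 and 0.32 (limma adjusted p = 0.253 and 0.279).

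Transcripts known to follow ERK activity were tested for 14 of 16, with 2 higher and 12 lower where 59.8% of all genes were lower. Their median was -0.53, and 0 passed the limma threshold (3 at an unadjusted p under 0.05, a share of the list near the 18.0% of all genes). Without PEGPH20 replicate 5 there were 4 higher and 10 lower with a median of -0.13. Of the listed genes 5, that is 25.0% of the feedback list and 31.2% of this list, stand in both. Ier3, an immediate early gene, was at 56.9, 47.4 and 47.8 CPM in vehicle and at 26.1, 10.4 and 25.9 CPM in PEGPH20 libraries, again with no overlap. Its log2 difference was -1.34 (SE 0.34, limma adjusted p = 0.155), and without replicate 5 it was -0.93 (adjusted p = 0.0127). The transcription factor Etv4 had a log2 difference of -1.09 with all libraries and -0.78 without replicate 5 (limma adjusted p = 0.183 and 0.163). For the inhibitor Spry2 the values were -0.40 and -0.31 (limma adjusted p = 0.269 and 0.361). Dusp6, the ERK phosphatase, was chosen after its values were seen and averaged 151 ± 46.6 CPM with vehicle and 151 ± 40.4 CPM with PEGPH20 (SD, n = 3 each).

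Of the adaptors and kinases of the cascade all 24 were tested, with 12 higher and 12 lower where 59.8% of all genes were lower. Their median was -0.04, and 0 passed the limma threshold (4 at an unadjusted p under 0.05, all lower, a share of the list near the 18.0% of all genes). The 5 libraries other than PEGPH20 replicate 5 gave 14 higher and 10 lower with a median of 0.042, so the sign of the median turned. Plcg1, a phospholipase recruited by EGFR, averaged 35.0 ± 2.34 CPM with vehicle and 20.1 ± 3.06 CPM with PEGPH20 (SD, n = 3 each, log2 difference -0.78, limma adjusted p = 0.143), and without replicate 5 the difference was -0.67 (adjusted p = 0.0612). The kinase gene Braf averaged 66.6 ± 3.20 CPM with vehicle and 51.3 ± 5.55 CPM with PEGPH20 (SD, n = 3 each, log2 difference -0.37, limma adjusted p = 0.231), and without replicate 5 the difference was -0.29 (adjusted p = 0.263). In both genes the PEGPH20 libraries all lay below the vehicle libraries. Without PEGPH20 replicate 5, Adam15, Errfi1 and Ier3 were the pathway genes past the limma threshold, where 2.98% of all genes tested passed.

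**Figure D4:**
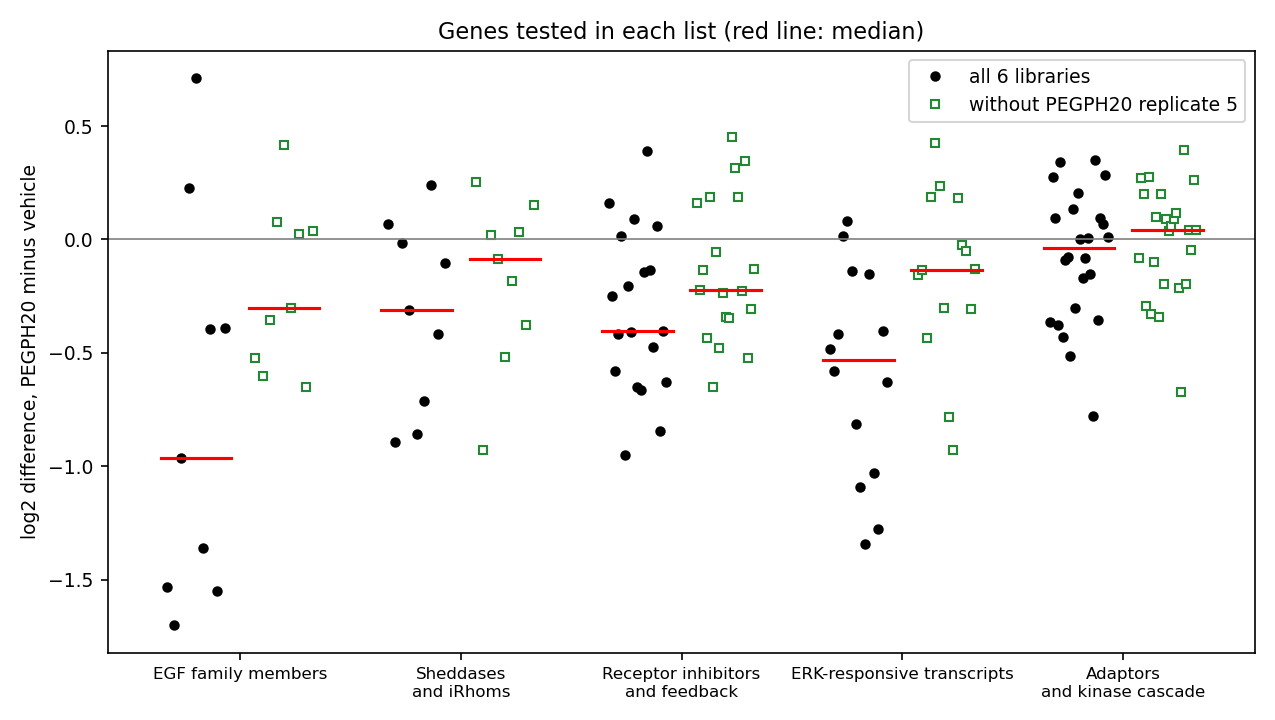
Log2 difference (PEGPH20 minus vehicle) of each gene tested in the EGF family and in 4 pathway lists, for all 6 libraries (filled circles) and without PEGPH20 replicate 5 (open squares), with the median of each as a red line. The family median of -0.96 lies below those of the lists, -0.53 for ERK-responsive transcripts and -0.04 for adaptors and kinases, and the family median is -0.30 without that library.

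Genes with the most similar profile were found by the distance between log2(CPM + 1) profiles centred over the 6 libraries, which PEGPH20 replicate 5 shapes strongly. Armh4 was nearest to Areg (distance 0.24 on the log2 scale), Il1rl1, the interleukin 33 receptor, to Ereg (0.44), Rims2 to Btc (0.23) and Plat, tissue plasminogen activator, to Nrg1 (0.27). Those next to them were Ankdd1b for Areg, Shf for Ereg, S100a6 for Btc and Basp1 for Nrg1. Sdc1, the proteoglycan syndecan 1, and S100a16 were nearest to Egfr (0.11 and 0.12), Sqle and Otud7b to Hbegf (0.12 and 0.14) and Cyren and Tcf21 to Tgfa (0.18 each). Erbb2 was nearest to Magi3 and Nsmce4a (0.09 and 0.10) and Erbb3 to Mtf1 and Nadsyn1 (0.12 and 0.17). None of these genes is in the family.

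Summed markers of several cell types also differed between libraries. The 10 fibroblast markers summed to 3202 to 3301 CPM in vehicle and to 1773, 679.7 and 1527 CPM in PEGPH20 replicates 4 to 6. Of them 10 of 10 had a log2 difference below 0, where 59.8% of all genes tested did. The 8 endothelial markers summed to 290.5 to 312 CPM and to 175, 101 and 155 CPM. Enterocyte markers summed to 3622 to 7666 CPM in vehicle and to 5914, 19077 and 5818 CPM in PEGPH20 libraries, so replicate 5 stood far above the rest. Their log2 difference was above 0 in 11 of 12, as in 4578 of all 11389 genes tested. Paneth cell markers summed to 1103 to 1226 CPM and to 2515, 6629 and 1573 CPM. The 10 general epithelial markers summed to 8348 to 9463 CPM and to 8425, 6054 and 8231 CPM. Neutrophil markers summed to 86.8 to 219.7 CPM in vehicle and to 71.0, 10.8 and 51.0 CPM, and macrophage markers to 244 to 247 CPM and 179 to 263 CPM. Enterocyte, general epithelial and macrophage marker sums overlapped between groups, as did those of goblet, smooth muscle, stem, T and mast cells. Marker sums of glia and neurons and of pancreatic acinar cells were low, and every PEGPH20 library lay below every vehicle library. The margins were a few reads at most. The highest PEGPH20 and lowest vehicle sums were 34.9 and 36.3 CPM for glia and neurons and 36.9 and 37.1 CPM for acinar cells. Only 1 of 7 acinar markers was tested. The part of any of the cell types above in the values of the family was not tested.

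**Figure D5:**
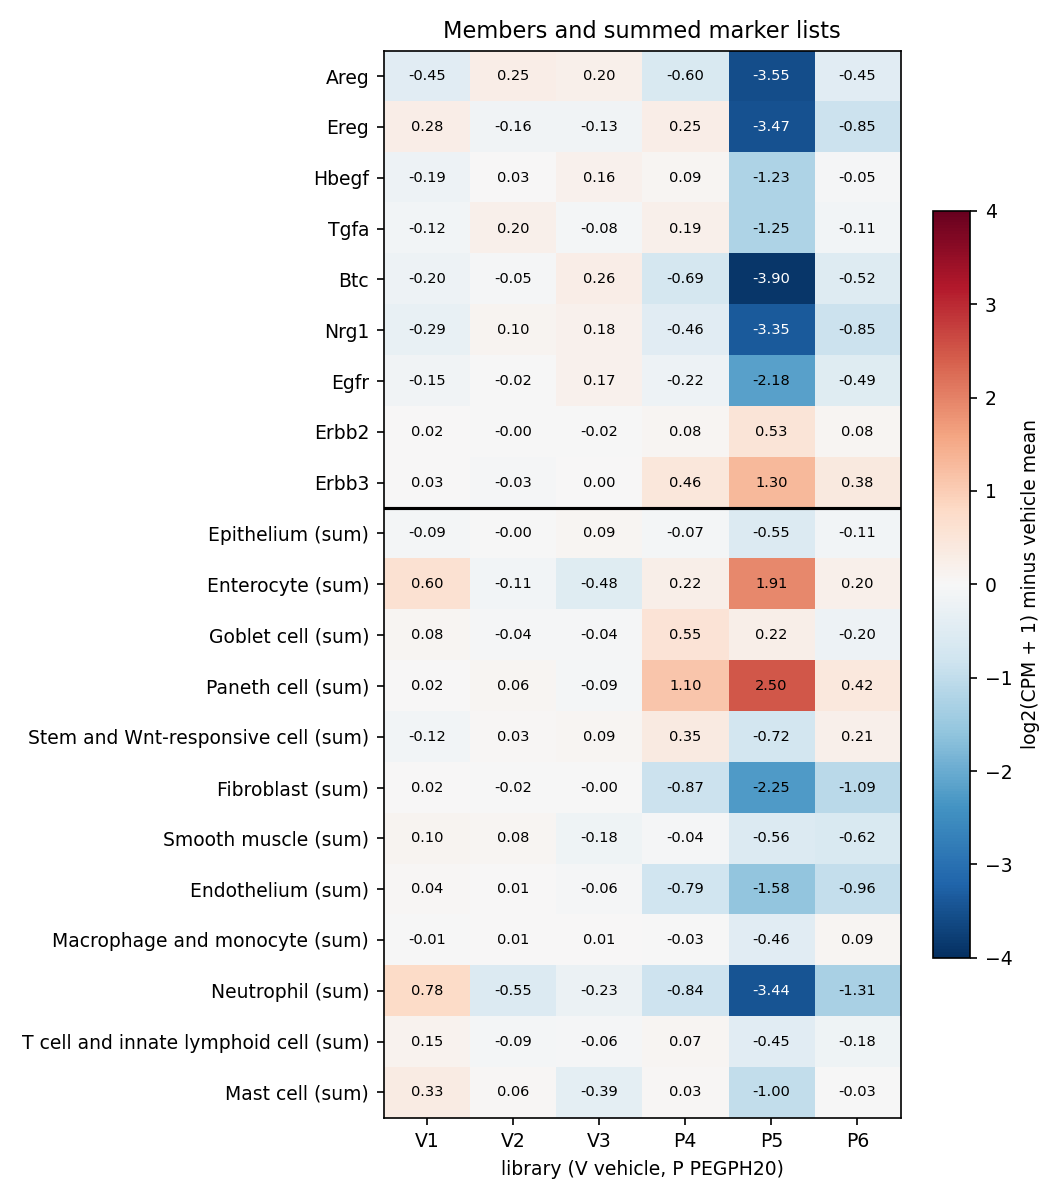
Log2(CPM + 1) minus the vehicle mean for each EGF family gene (above the line) and for the summed CPM of 12 marker lists (below it), by library, with V for vehicle and P for PEGPH20. In PEGPH20 replicate 5 Btc is at -3.90, Areg at -3.55 and Erbb3 at 1.30, beside -2.25 for fibroblast and 1.91 for enterocyte markers.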

How the data were processed

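QuantSeq 3' libraries of 6 tumors were analysed. Gene values were deposited as a signal in CPM, a count scaled to 1000000 reads over all gene rows, as the values themselves show. A row of totals names no gene and was left out. Per the submitters' processing notes the build was GRCm38. Not given in the sources used here are aligner, counter, annotation release and use of molecular identifiers. Symbols and positions came from GENCODE M21, for 21786 of 21878 identifiers. Dividing by the value of 1 read (0.353 to 0.482 CPM) gave whole reads for 100% of values, with a tolerance of 1e-06. A count of 0 allows up to 3 reads, 1.06 to 1.45 CPM. No library pair was a duplicate, with chi-square per degree of freedom of 2.42 to 35.8 in 15 pairs.

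Genes were kept by filterByExpr on recovered reads (minimum count 10), and 11389 genes were tested in limma 3.58.1 (trend option) on log2(CPM + 1), with Benjamini-Hochberg adjustment. A pseudocount of 1 understates changes of low genes. Since separate mice are not stated, p-values reflect only the spread among the samples, which may be technical. The family genes and lists were chosen with earlier results of these data known. Named genes were the 9, the 3 smallest p-values of each pathway list and the 2 nearest profiles of each family gene. A gene that this rule names is not reported here. On simulated reads for these 11389 genes with 200 changed, limma recovered 24.6% of 2-fold and 84.0% of 4-fold changes, and 7.02% of its calls were false. Simulated reads were drawn separately for each gene, with no library that stood apart as PEGPH20 replicate 5 did. These rates may therefore not hold for the real libraries. Alternatives were edgeR 4.0.16, DESeq2 1.42.0, TMM and RLE scaling, pseudocounts of 0.1 and 5, other filters, array weights and leaving out each library. Software was R 4.3.3 and Python 3.11.15.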

Additional observations from a re-analysis of the deposited data

How the results depend on the processing

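No paired analysis was possible because the groups share no replicate number. Over all genes 9 passed (3 higher, 6 lower; 4 and 5 under TMM scaling), 29 without a filter on low values, 277 in DESeq2 and 871 with array weights. Leaving out each library gave 1 to 339 genes, the highest without PEGPH20 replicate 5, 4 without PEGPH20 replicate 4 and 1 without any other, and edgeR without PEGPH20 replicate 5 gave 421. Family genes past the threshold numbered 0 under 15 alternatives and 2 (Btc and Nrg1) in edgeR without PEGPH20 replicate 5. Leaving out each library moved the family median between -1.34 and -0.30. With array weights 1 sheddase (Adam15), 1 feedback gene (Errfi1), 1 ERK-responsive gene (Ier3) and 1 kinase cascade gene (Plcg1) passed. Leaving out each library gave 0 to 1 gene in the lists of sheddases, feedback and ERK-responsive genes, and edgeR without PEGPH20 replicate 5 gave 1 in each. DESeq2 gave 1 ERK-responsive gene. The differences of Hbegf and Tgfa turned to 0.023 and 0.039 without PEGPH20 replicate 5, and to 0.035 and 0.061 in edgeR without it, and leaving out each library moved them from -0.64 to 0.023 and from -0.68 to 0.039. The cause was not tested. Of 144 values of family genes under 16 alternatives, 138 kept their direction and side of the threshold. Family genes had 25 to 1100 reads per library, and those outside the 9 had too few to test or no gene row.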

Other observations

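Epithelial markers did not all lie on the same side in PEGPH20 replicate 5, where the ligands were lowest and Erbb3 highest. The keratin gene Krt18 was at 72.9 CPM there and between 386 and 643 CPM in the other libraries, and Krt19 at 675 CPM against 1919 to 2670 CPM. Vil1, a brush border protein gene, was at 768 CPM against 367 to 466 CPM. Epcam, an epithelial adhesion protein gene, was at 1668 CPM, within the 1266 to 1927 CPM of the others. These genes were chosen after their values were seen.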
